A study of Mus musculus with 5 samples.

Results

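The metalloprotease and TIMP genes were taken from all 23185 probe sets with 1 gene by their platform symbols, namely Mmp, Adam, Adamts, Adamtsl or Timp followed by a number and at most 1 letter. The rule found 83 genes, which were 22 MMP, 34 ADAM, 18 ADAMTS, 5 ADAMTS-like and 4 TIMP genes. They were measured in 5 single-cell clones of Ocy454, a mouse cell line with osteocyte traits, on 1 Affymetrix array per clone. The high SOST group held clones 12H and 15H and the low SOST group held clones 4L, 9L and 24L, where SOST stands for sclerostin, the Wnt inhibitor encoded by Sost. Per the labels, the clones came out of a screen of 37 for Sost, all were untreated, and all were grown for 7 days at 37 °C in alpha-MEM with fetal bovine serum. Each group is thus a set of clones of a single line, and what differs between groups cannot be told apart from what differs between clones. No animal or genetic change is named in the labels.

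Values are RMA expression on the log2 scale, where 1 unit is a 2-fold difference. They can be compared between clones, but not between genes, since every probe set has its own response. A gene with a mean under 6 over the 5 clones is called dim here, and its differences are likely to be understated. RNA of a whole culture was measured, so fewer cells with a transcript and less of it per cell cannot be told apart. A difference is the high SOST mean minus the low SOST mean, with the moderated standard error (SE), the 95% interval where given and the Benjamini-Hochberg adjusted p of limma over all 23185 genes. Array medians ranged from 4.13 to 4.16, and having 1 array per clone limits the precision. Sost itself read 3.78 to 3.91 in the low SOST clones and 3.92 to 4.08 in the high SOST clones, so these arrays hardly separated the groups by the gene that named them. With a mean of 3.92 Sost is dim, so its difference is likely to be understated. Among 9 osteoblast and osteocyte markers measured, Dmp1, Phex, Bglap, Sp7 and Alpl were at least 2-fold higher in the high SOST clones without overlap, where 0.867% of all named genes were. Pdpn, the early osteocyte marker podoplanin, went the other way without overlap, at 8.35 for 12H and 8.06 for 15H against 8.97 to 9.20 (difference -0.92, SE 0.13, limma adjusted p = 0.572). Col1a1 overlapped between the groups, and Mepe stayed between 2.79 and 3.05. The mean level of that list was 4.84 for 4L, 6.08 in both 9L and 24L, 7.55 for 12H and 7.25 for 15H. This mean was thus higher in both high SOST clones and lowest for 4L, though single markers of the list had their lowest value in other clones, and the part of these markers in the results below was not tested.

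Matrix metalloproteinases (MMPs) are zinc enzymes that cut collagens and other matrix proteins, either secreted or held in the cell membrane. ADAMs are membrane proteins of which some shed growth factors and receptors from the cell surface and others lack a working active site. ADAMTS enzymes are secreted and cut proteoglycans and procollagens, ADAMTS-like proteins share their domains without the protease, and TIMPs are secreted inhibitors of MMPs, of which some also block certain ADAM and ADAMTS enzymes. In bone, osteocytes use MMPs to remodel the matrix around their lacunae and canaliculi.

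Of the 83 genes, 20 had a mean of 6 or more (24.1%), against 33.7% of all named genes. They made up 5 of 22 MMPs, 4 of 34 ADAMs, 6 of 18 ADAMTS, 2 of 5 ADAMTS-like and 3 of 4 TIMP genes. The members nearest the limit were Mmp23 (mean 6.06) above it and Mmp19 (mean 5.87) below it. Among the 63 dim genes, 51 stayed within 1 log2 unit over the 5 clones, and 6 genes held a single value on all arrays (Adam24, Adam25, Adam26a, Adamts16, Mmp3 and Mmp12). The other 12 dim genes spanned 1 unit or more and included the 4 widest spreads of the families, those of Adam23 (3.52), Mmp13 (3.24), Adam12 (3.09) and Mmp19 (2.68). A span of 2 or more was seen in 7 of the 83 genes, against 2.98% of all named genes.

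**Figure D1:**
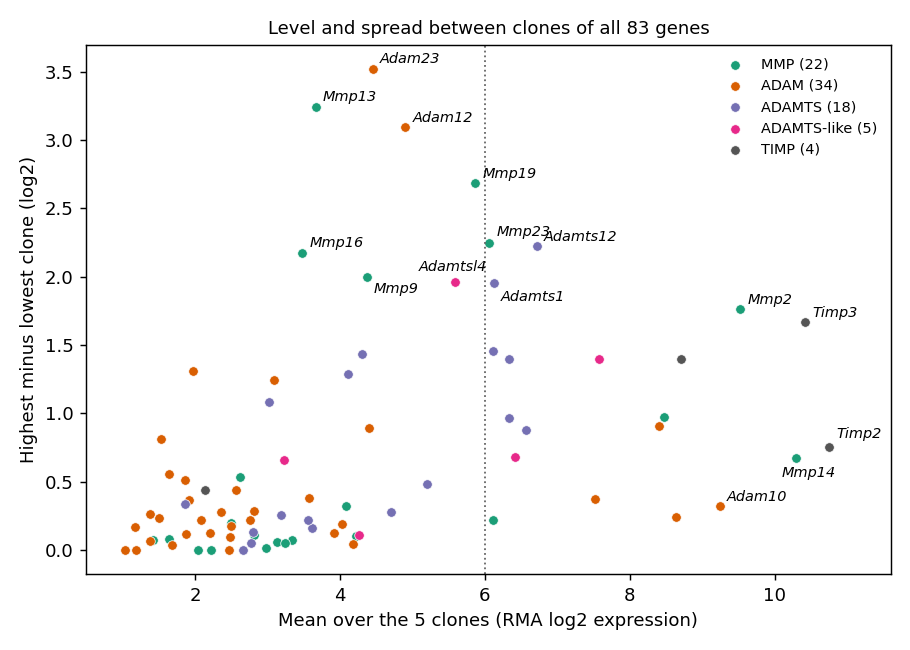
Mean RMA log2 expression over the 5 clones (x axis) against the highest minus the lowest clone (y axis, log2) for each of the 83 genes, coloured by family, with a dotted line at the limit of 6. Most dim genes lie near 0 on the y axis, whereas Adam23, Mmp13 and Adam12 span over 3 units below the limit.

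Between the groups, 3 genes were at least 2-fold higher in the high SOST clones with no overlap between clones, Adam12, Adamts12 and Mmp13, where 0.867% of all named genes were. Another 3 were at least 2-fold lower without overlap, Mmp19, Mmp9 and Adamtsl4, where 0.983% of all named genes were. None of the 83 passed limma at an adjusted p under 0.05 (0 members, and 0.0% of all named genes). At an unadjusted p under 0.05 there were 4 members, all higher in the high SOST clones, namely Adam12, Adamts12, Mmp14 and Adam34l, beside 5.78% of all named genes in either direction (3.07% higher and 2.71% lower). Adam34l, named after its values were seen, is dim, with a mean of 1.87 that lies far under the limit of 6. It read 1.65 to 1.75 in the low SOST and 2.10 and 2.16 in the high SOST clones. Its difference was 0.44 (SE 0.05, limma adjusted p = 0.547). Adam34, its near namesake on chromosome 8, had no overlap either, and whether the probe sets of these related genes share signal was not tested. The median difference was 0.01 over the 83 genes and 0.0 over all named genes. Without regard to size, the clones did not overlap for 11 members in the higher direction (8.26% of all named genes did so) and 5 in the lower (7.75%), or 16 in either direction (16.0%). Without clone 15H, 16 members had an unadjusted p under 0.05, 11 higher and 5 lower, but so had 13.4% of all named genes. There were 5 higher and 3 lower without 9L (7.17% of all named genes in either direction) and 6 higher and 2 lower without 12H (9.08%). The count of genes at least 2-fold lower was 1 without clone 12H, 5 without 9L and 6 without 15H, where 0.914%, 1.63% and 2.04% of all named genes were. With 2 clones against 3, an exact permutation test of a single gene cannot give a p under 0.1.

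**Figure D2:**
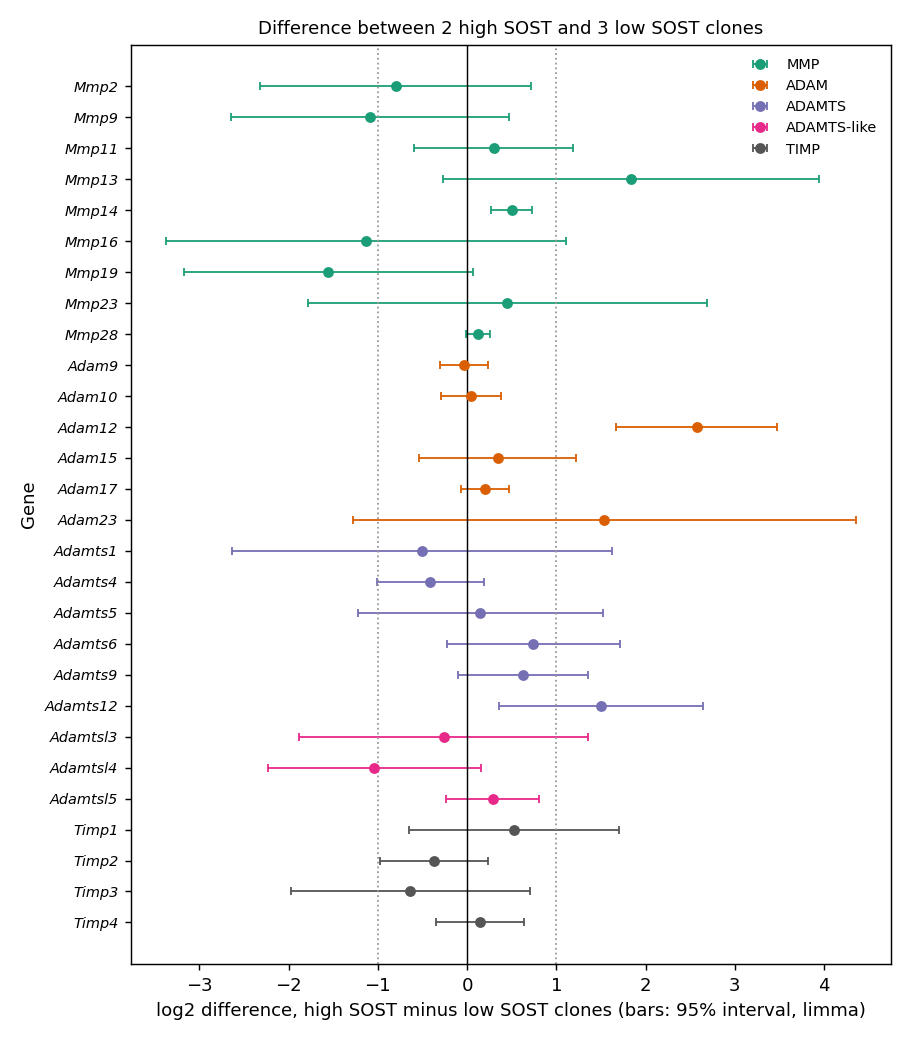
Difference between the mean of the 2 high SOST and the mean of the 3 low SOST clones (x axis, log2) with its 95% limma interval for the 28 genes with a mean of 6 or more, a TIMP name, a 2-fold difference without overlap or a span of 2 or more. Dotted lines mark 2-fold in either direction, and the intervals of Adam12, Adamts12 and Mmp14 lie above 0.

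Among the collagenases, Mmp13, which cuts fibrillar collagens and is made by osteoblasts, osteocytes and hypertrophic chondrocytes, was dim on average and clearly highest in a single clone. It read 5.81 for 15H and 3.73 for 12H, against 2.56 for 4L, 3.00 for 24L and 3.23 for 9L. The groups did not overlap, but 12H lay only 0.50 above 9L while 15H stood far above every other clone. The difference was 1.84 (SE 0.73, 3.57-fold, limma adjusted p = 0.737), and it was 0.80 without 15H and 2.88 without 12H. The other collagenases Mmp1a, Mmp1b and Mmp8 had means of 1.42 to 2.49 and differences of at most 0.07 in size.

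Mmp13 lies at the end of a run of 10 Mmp genes on chromosome 9, with no other named probe set between them in the order of the RefSeq table. Its neighbours Mmp12, Mmp1b, Mmp3, Mmp1a, Mmp10, Mmp8, Mmp27, Mmp20 and Mmp7 had means between 1.42 and 3.34, and their clones were at most 0.54 apart. Of this run Mmp13 was thus the sole gene with a wide spread between the clones. AP-1 factors (Fos and Jun proteins) and RUNX factors are known to bind the Mmp13 promoter. The 250 bases before each RefSeq start site (build GRCm38.p6) were searched for the AP-1 letters TGANTCA, which read the same way on the other strand, and for the RUNX letters TGTGGT on both strands. TGANTCA was present for 8 of the 10 genes of the run, in 8 of their 12 windows, and in 6.75% of all 32851 windows of the table. TGTGGT was present for 4 of the 10, Mmp13, Mmp1b, Mmp27 and Mmp7. Over all families, 52 of the 83 genes had a window, and 12 of their 57 windows held TGANTCA (21.1%). Of these 12, 8 were the windows of the run, and the others were of Adam19, Adam20, Adam25 and Adam29. TGTGGT was held by 11 of the 57 windows (19.3%, against 14.0% of all windows). Mmp8 and Mmp27 were the genes of the run without TGANTCA. For 5 of the 8 genes with it, chosen after their values were seen, the 130 bases before the start site follow as examples. These stretches are given 5′ to 3′ on the strand of the gene, with matches to either motif in capitals. They lie at chr9:7272384-7272513 (Mmp13, plus strand), chr9:7445692-7445821 (Mmp3, plus), chr9:7502212-7502341 (Mmp10, plus), chr9:7464011-7464140 (Mmp1a, plus) and chr9:7388027-7388156 (Mmp1b, minus).
Mmp13: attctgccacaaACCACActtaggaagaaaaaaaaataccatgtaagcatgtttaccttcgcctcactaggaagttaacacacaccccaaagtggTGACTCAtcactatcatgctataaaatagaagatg
Mmp3: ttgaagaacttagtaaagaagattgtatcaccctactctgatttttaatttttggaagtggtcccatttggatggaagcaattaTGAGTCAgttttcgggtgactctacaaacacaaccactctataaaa
Mmp10: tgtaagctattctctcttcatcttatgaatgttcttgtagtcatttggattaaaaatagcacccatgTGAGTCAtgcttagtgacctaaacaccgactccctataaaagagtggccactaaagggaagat
Mmp1a: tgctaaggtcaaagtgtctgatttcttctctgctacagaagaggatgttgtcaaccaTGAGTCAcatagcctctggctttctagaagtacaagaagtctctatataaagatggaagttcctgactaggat
Mmp1b: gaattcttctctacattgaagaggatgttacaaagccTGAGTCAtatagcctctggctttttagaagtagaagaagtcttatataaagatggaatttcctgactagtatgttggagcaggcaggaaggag

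All 5 stretches hold an AP-1 match, as their choice required. That of Mmp13 also holds a RUNX match as ACCACA, the reverse complement of TGTGGT, which does not overlap its AP-1 match, while the match of Mmp1b lies before the stretch shown. Such a match is a description of letters and shows no binding, and whether it bears on the values was not tested. Of 12 AP-1 and RUNX factor genes measured, 0 passed limma. Runx2, also on that list, is not analysed here. At an unadjusted p under 0.05, 3 of the 12 were lower (2.71% of all named genes were), Jun and, named after their values were seen, Atf3 and Batf3. Jun was at least 2-fold lower in the high SOST clones without overlap (0.983% of all named genes were). It read 6.16 for 12H and 6.89 for 15H, against 7.56 for 4L, 7.62 for 9L and 7.96 for 24L. The difference was -1.19 (SE 0.29, limma adjusted p = 0.737). The median difference of those 12 genes was -0.41, against 0.0 over all named genes, but the list went both ways. Without overlap, Cbfb (0.43, SE 0.24) and Runx3 (0.18, SE 0.10) were higher, where 8.26% of all named genes were. Their margins were thin, at 8.85 for 15H against 8.84 for 4L, and 7.632 for 12H against 7.628 for 9L. Jun, Atf3, Batf3 and Fosl1 were lower without overlap, where 7.75% of all named genes were.

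**Figure D3:**
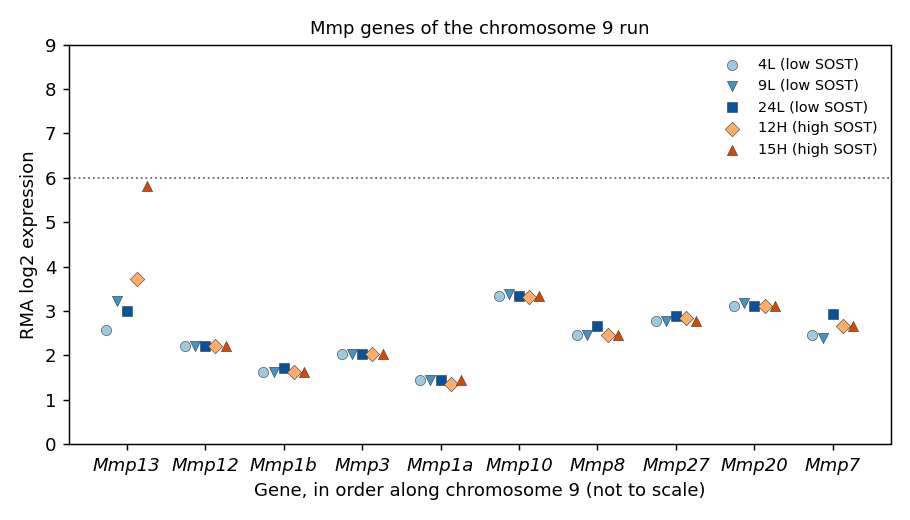
RMA log2 expression (y axis) of the 10 Mmp genes of the chromosome 9 run in their order along the chromosome (x axis, not to scale), with 1 point per clone, set side by side for each gene, and a dotted line at 6. Mmp13 in clone 15H, at 5.81, stands apart from the other points, which lie at 3.73 or below.

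Among the gelatinases, which cut denatured collagen and basement membrane collagen, Mmp2 was well above the limit in every clone and Mmp9 was dim. Mmp2 read 10.59 for 24L, 9.87 for 4L and 9.08 for 9L, against 9.27 for 15H and 8.83 for 12H. Clone 24L was highest, and 15H exceeded 9L, so the groups overlapped (difference -0.80, SE 0.53, limma adjusted p = 0.737, and -0.42 without 24L). Mmp9, also a product of osteoclasts, read 5.64 for 24L, 4.75 for 4L and 4.03 for 9L, against 3.79 for 12H and 3.64 for 15H. Its difference was -1.09 (SE 0.54, 2.13-fold, limma adjusted p = 0.737) without overlap, and -0.67 without clone 24L. Of 11 macrophage and osteoclast markers 1, Ctsk, had a mean of 6 or more. Cd68 read 6.97 for 4L, 6.13 for 15H, 5.88 for 24L, 5.51 for 9L and 5.27 for 12H, a span of 1.70, and the other 9, Ptprc, Itgam, Acp5 and Dcstamp among them, spanned at most 0.16. The mean level of the list was 3.42 to 3.74 in the low SOST and 3.67 and 3.77 in the high SOST clones. Ctsk, which osteocytes also make, read 3.50 for 4L and 4.49 for 24L and between 7.85 and 8.35 in the other clones. The part of Ctsk and Cd68 in the Mmp9 result was not tested.

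Of the membrane-type MMPs, Mmp14, a collagenase of the cell surface that also activates the Mmp2 protein together with Timp2, was the sole gene of 5 with a mean of 6 or more. It read 10.67 for 12H and 10.51 for 15H, against 9.99 for 4L, 10.12 for 9L and 10.16 for 24L. The groups did not overlap and the clones within each group lay close together, with SDs of 0.12 (n = 2) and 0.09 (n = 3). The difference of 0.50 (SE 0.08, 1.41-fold, 95% interval 0.26 to 0.73) was small and did not pass over all genes (limma adjusted p = 0.602), and it was 0.42 to 0.58 with any clone left out. Mmp16, another membrane-type enzyme, read 4.71 for 24L and 4.46 for 4L, against 2.63 for 9L, 3.07 for 15H and 2.54 for 12H. Clone 9L thus lay among the high SOST clones (difference -1.13, SE 0.78, limma adjusted p = 0.737), and the difference was -1.79 without 9L and -0.74 without 24L. Mmp17, Mmp24 and Mmp25 had means of 3.24 to 4.22 and spanned at most 0.32.

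In the stromelysins and the other MMPs, Mmp19, a secreted enzyme with a broad range of matrix substrates, had the largest difference toward the low SOST clones among the 83 genes. It read 6.98 for 24L, 6.59 for 9L and 5.91 for 4L, against 5.58 for 15H and 4.30 for 12H. Clone 15H lay closer to 4L than to 12H (difference -1.56, SE 0.56, 2.94-fold, limma adjusted p = 0.737), and the difference was -0.91 without 12H and -2.20 without 15H. Mmp11, a stromelysin that is activated inside the cell, read 8.26 for 12H and 9.03 for 15H, against 8.06 to 8.50 in the low SOST clones. Its difference of 0.30 (SE 0.31) turned to -0.09 without 15H, and was 0.15 without 24L and 0.68 without 12H. Mmp23 read 4.67 for 4L, 6.05 for 24L and 6.92 for 9L, against 6.57 for 12H and 6.08 for 15H, so that 4L alone lay apart, and its difference of 0.45 turned to -0.15 without 4L, and was 0.20 without 12H, 0.70 without 15H and 0.97 without 9L. Mmp28, or epilysin, had the narrowest span among the genes with a mean of 6 or more (0.22), with its high SOST clones at 6.16 and 6.22 above the low SOST clones, the highest of which read 6.11.

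Among ADAM genes, Adam12 had the largest difference of the 83 genes. Adam12 encodes a protease of mesenchymal cells that sheds ligands of the EGF receptor and cuts IGF-binding proteins (Entrez gene 11489, chromosome 7). It read 6.57 for 12H and 6.32 for 15H, against 4.37 for 24L, 3.78 for 4L and 3.48 for 9L. The high SOST clones lay 0.25 apart and every low SOST clone lay at least 1.95 below them. The difference was 2.57 (SE 0.32, 5.94-fold, 95% interval 1.67 to 3.47, limma adjusted p = 0.572), and 2.37 to 2.82 with any clone left out. Since the low SOST clones read under 6, the fold is likely understated.

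Of the widely made sheddases, Adam9 and Adam10 hardly differed. Adam10, which cuts Notch and cadherins, read 9.06 to 9.38 over the 5 clones (difference 0.05, 95% interval -0.29 to 0.38), and Adam9 read 8.52 to 8.76 (difference -0.03, 95% interval -0.30 to 0.23). The signs of both turned with a clone left out. Adam17, the enzyme that sheds TNF, read 7.66 and 7.63 in the high SOST clones against 7.29 to 7.54 in the low SOST clones, a difference of 0.20 (SE 0.10, limma adjusted p = 0.737, and 0.12 without 9L) without overlap. Adam15 read 8.62 and 8.60 in the high SOST clones, against 7.83 for 24L, 8.23 for 4L and 8.74 for 9L (difference 0.34, SE 0.31, and 0.13 without 24L or 0.58 without 9L). The 95% intervals of Adam9, Adam10 and Adam17 lie within 2-fold in either direction, whereas that of Adam15, -0.54 to 1.22, does not.

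Adam23, an adhesion protein without protease activity best known from neurons, had the widest span of the 83 genes, and its groups overlapped. It read 6.59 for 15H, 4.70 for 9L, 4.16 for 12H, 3.75 for 24L and 3.07 for 4L. The difference was 1.54 (SE 0.98, limma adjusted p = 0.737), and 0.32 without 15H or 2.75 without 12H. Among the 30 dim ADAM genes, 26 spanned under 1 unit. The 14 ADAM genes on chromosome 8 included Adam9 and 13 dim genes with means of 1.04 to 3.09, several of which are known from testis. All 8 male germ cell markers measured had means under 6, and their list's mean level was 3.02 to 3.13 in every clone.

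**Figure D4:**
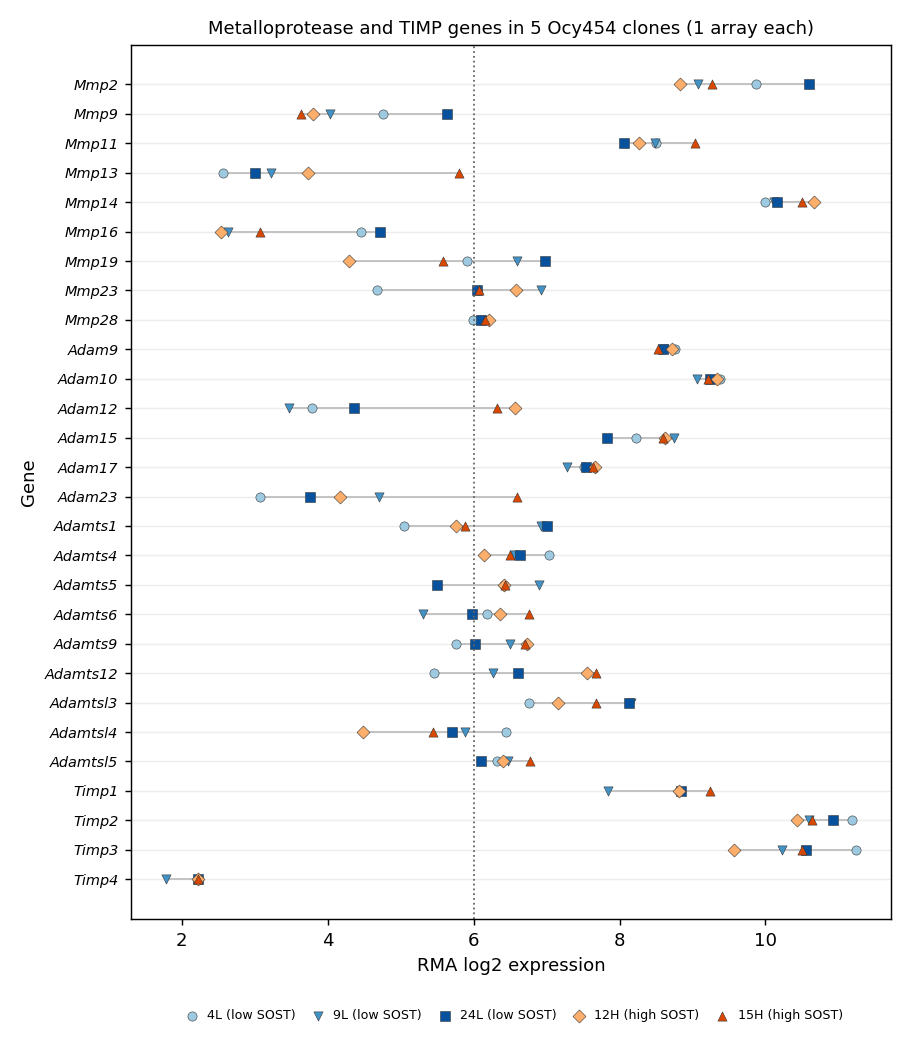
RMA log2 expression (x axis) of the same 28 genes (y axis, by family) with 1 point per clone, blue for low SOST and orange for high SOST, and a dotted line at 6. The orange points of Adam12 lie at 6.32 and 6.57, clear of the blue points, while those of Adam10 fall among the blue ones. For Adam9, 12H falls among the blue points and 15H, at 8.52, lies just below them.

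Among ADAMTS genes, Adamts12, which cuts cartilage oligomeric matrix protein (Entrez gene 239337, chromosome 15), was the sole one of the 6 genes 2-fold apart without overlap to have a mean of 6 or more. It read 7.55 for 12H and 7.68 for 15H, against 6.61 for 24L, 6.27 for 9L and 5.46 for 4L. All clones but 4L lay above 6, and the high SOST clones stood 0.94 or more above the rest. The difference was 1.503 (SE 0.40, 2.83-fold, 95% interval 0.36 to 2.64, limma adjusted p = 0.737), and 1.18 without 4L.

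The proteoglycanases, which cut aggrecan and versican, had differences of either sign. Without overlap 1 was higher and 1 lower, where 8.26% and 7.75% of all named genes were. At an unadjusted p under 0.05 there were 0 of them. Of 7 measured, 4 had a mean of 6 or more, and their median difference was 0.02. Adamts9 read 6.73 and 6.71 in the high SOST clones against 5.76 to 6.50 in the low SOST clones (difference 0.63, SE 0.25), and Adamts4 read 6.15 and 6.50 against 6.55 to 7.03 (difference -0.41, SE 0.21, and -0.24 without 12H or -0.27 without 4L). Neither overlapped between groups, and the limma adjusted p was 0.737 for each. Adamts1 read 5.05 for 4L, 5.76 for 12H and 5.88 for 15H, against 6.92 for 9L and 7.00 for 24L, so the high SOST clones lay between the low SOST clones. Its difference of -0.50 (SE 0.74) was -1.14 without 4L, -0.20 without 9L and -0.17 without 24L. Adamts5 read 6.42 and 6.43 in the high SOST clones, against 5.50 for 24L, 6.42 for 4L and 6.90 for 9L, and its difference of 0.15 turned to -0.24 without 24L and was 0.46 without 9L. Adamts6, for which fewer substrates are known, read 6.36 and 6.76 against 5.30 to 6.18 (difference 0.74, SE 0.34, and 0.48 without 9L). The procollagen N-proteinases Adamts3 and Adamts14, which trim collagen precursors, were dim, with means of 1.87 and 4.71 and spans of at most 0.34.

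Of the ADAMTS-like genes, Adamtsl4, which binds fibrillin microfibrils, read 6.45 for 4L, 5.88 for 9L and 5.70 for 24L, against 5.45 for 15H and 4.49 for 12H. The groups came within 0.25 of each other (difference -1.04, SE 0.42, 2.06-fold, limma adjusted p = 0.737), and the difference was -0.56 without 12H. Adamtsl3 read 6.76 for 4L and 8.16 and 8.13 for 9L and 24L, with 7.16 and 7.68 in the high SOST clones between them (difference -0.26, SE 0.56). With a clone left out this difference ranged from -0.73 without 4L to -0.0052 without 12H, and leaving out any of the 5 moved it by over 1.5 times. Adamtsl5 spanned 6.10 to 6.78 with overlap.

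All 4 TIMP genes overlapped between the groups, where 16.0% of all named genes did not. Timp2, which also bridges Mmp14 and the Mmp2 precursor, read 11.19 for 4L, 10.93 for 24L and 10.59 for 9L, against 10.64 for 15H and 10.43 for 12H (difference -0.37, SE 0.21, and -0.23 without 4L). Timp3, the matrix-bound inhibitor that also blocks ADAM and ADAMTS enzymes, read 11.24 for 4L, 10.56 for 24L and 10.23 for 9L, against 10.51 for 15H and 9.57 for 12H (difference -0.64, SE 0.47). The Timp3 difference was -0.17 without 12H, -0.35 without 4L and -1.10 without 15H. Clone 4L was highest and 12H lowest for both genes. Timp1 read 8.81 for 12H and 9.24 for 15H, against 8.81 for 4L, 8.85 for 24L and 7.84 for 9L (difference 0.53, SE 0.41, and 0.20 without 9L or 0.31 without 15H). The limma adjusted p of these 3 lay between 0.737 and 0.739. Timp4 read 2.22 in 4 clones and 1.78 for 9L.

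The genes that activate, inhibit or partner with metalloproteases comprised 27 measured genes, of which 0 passed limma, and the median difference was 0.10. At an unadjusted p under 0.05, 3 were higher (Reck, and Thsd4 and Tspan33, named after their values were seen) and 3 lower (Plau, Pcolce and Tspan15), beside 3.07% and 2.71% of all named genes. Reck, a membrane-anchored inhibitor of Mmp2, Mmp9 and Mmp14, read 7.99 for 12H and 7.63 for 15H, against 6.74 for 9L, 6.29 for 24L and 5.58 for 4L (difference 1.61, SE 0.41). Pcsk6, a furin-like convertase, read 8.02 and 8.33 against 6.55 for 9L, 5.97 for 24L and 3.72 for 4L (difference 2.77, SE 1.01, and 1.92 without 4L). These were the 2 genes of the list at least 2-fold higher without overlap (0.867% of all named genes were). The 4 lower by that measure (0.983% of all named genes) were Plau, Pcolce, Tspan5 and Tspan15. Plau, the urokinase that makes plasmin, differed by -1.16 (SE 0.29). Pcolce, the enhancer of procollagen C-proteinase, differed by -1.05 (SE 0.23). The tetraspanins of the list went both ways. Tspan5 (-1.09, SE 0.56) and Tspan15 (-1.29, SE 0.41) were lower. Without clone 4L the Tspan5 difference was -0.61, and without 12H that of Tspan15 was -0.85. Tspan14 (0.81, SE 0.35), Tspan17 (0.50, SE 0.21) and the dim Tspan33 (0.42, SE 0.13) were higher without overlap, where 8.26% of all named genes were. Tspan10 was dim and overlapped (-0.08).

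Among 14 other zinc metalloendopeptidases, Bmp1, the procollagen C-proteinase, read 8.38 and 8.31 in the high SOST clones against 6.85 to 7.54 (difference 1.17, SE 0.23, limma adjusted p = 0.677). Mme, or neprilysin, read 6.07 for 12H and 7.90 for 15H against 8.93 to 10.35 (difference -2.51, SE 0.80, and -1.59 without 12H). Phex, which is needed for phosphate balance, read 6.04 and 6.99 against 2.08 to 3.17 (difference 3.90, SE 0.49, limma adjusted p = 0.572). These 3 were also the genes of the list at an unadjusted p under 0.05 (5.78% of all named genes were), 0 of the 14 passed limma, and the median difference was 0.00044.

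Of the substrates, 23 matrix genes had a median difference of -0.13 and 31 shed membrane proteins one of 0.01, and 0 of either list passed limma. At an unadjusted p under 0.05 there were 0 of the first list and 1 of the second, Cdh2, named after its values were seen (difference 0.82, SE 0.22), where 5.78% of all named genes were. In the matrix list 1 gene, Col3a1, was at least 2-fold lower without overlap (0.983% of all named genes were). Col3a1 read 4.96 for 15H and 5.29 for 12H, against 6.23 for 4L, 7.20 for 9L and 9.92 for 24L. The difference was -2.66 (SE 1.29), and -1.59 without 24L. Among the shed proteins, 4 were lower in that way (0.983% of all named genes were), namely Nrg1, an EGF-family ligand (-2.51, SE 1.19), Vcam1, an adhesion molecule (-2.39, SE 1.15), Cxcl16 (-1.28, SE 0.59) and Cx3cl1 (-1.25, SE 0.58), both membrane-bound chemokines. For all 4, clone 9L lay closest to the high SOST clones. Without 4L the differences of Cxcl16 and Cx3cl1 were -0.80 and -0.81. Of 5 fibroblast and tendon markers, Pdgfra was at least 2-fold higher without overlap (0.867% of all named genes were). Col3a1 and Scx were at least 2-fold lower without overlap (0.983% of all named genes were), and Dcn and Tnmd had means under 6.

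**Figure D5:**
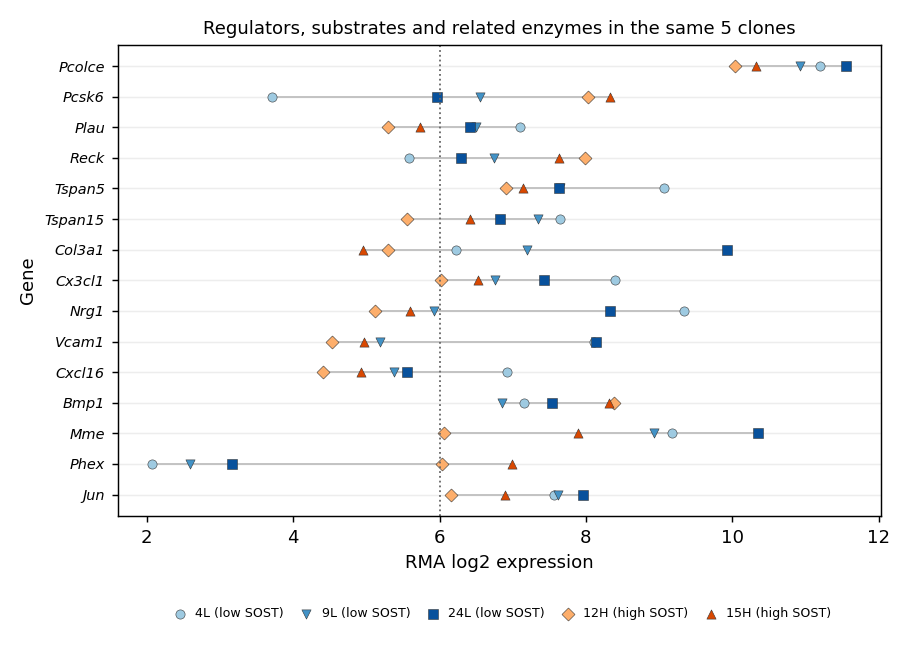
RMA log2 expression (x axis) of the 15 regulators, substrates, related enzymes and the factor Jun with a 2-fold difference without overlap (y axis), with 1 point per clone, blue for low SOST and orange for high SOST, and a dotted line at 6. Reck, Pcsk6, Bmp1 and Phex have both orange points to the right of the blue ones, and the other genes have them to the left.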

How the data were processed

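The deposited table holds log2 expression for 25206 probe sets in 5 samples. RMA is listed with affy 1.36.1 and R 2.15.1 in the submitters' processing notes, without their roles. Neither chip definition nor build is given in the sources used here. RMA brings arrays to a common distribution, which removes any shift that most genes of an array share. Probe sets were named by the platform table, and all 23185 with 1 gene were found by Entrez number in the RefSeq table of GRCm38.p6; 2021 unnamed ones were not used. Among the 83 members, 51 hold a value repeated between arrays, a trait of median-based summaries. Promoter sequences are RefSeq's (GRCm38.p6).

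Groups follow the labels, which do not say whether cultures were repeated. With 1 array per clone, p-values measure the spread between clones, from which that of cultures and arrays cannot be told apart. Each gene was fitted with limma 3.58.1 in R 4.3.3 (eBayes without trend, 3 residual degrees of freedom, prior 0.70), two-sided, adjusted over 23185 genes, and tested on simulated data. Named were members with a mean of 6 or more, all TIMPs, those 2-fold apart without overlap and those spanning 2 or more, and genes of 5 lists that were 2-fold apart without overlap. Over these and the marker lists 149 of 155 entries were measured. Mmp15 and Adamts2 are not analysed here. The members and lists were chosen with earlier results of these data known. A planned split of ADAMs by their protein sequence was not made. Figures used matplotlib 3.10.9 in Python 3.11.15.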

Additional observations from a re-analysis of the deposited data

How the results depend on the processing

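The 0 of 83 members passing limma stayed at 0 under every alternative run, namely array weights, a robust variance trend, a common median for all arrays, a second quantile normalization, a fit without the dimmest 30%, an unmoderated test, an adjusted p under 0.1 and leaving out each clone. Among all named genes, 2 passed with arrays shifted to 1 median, a shift of at most 0.02, and 3 at an adjusted p under 0.1. Members at an unadjusted p under 0.05 numbered 7 (6 higher and 1 lower) with arrays shifted to 1 median, 4 higher and 1 lower with quantile normalization again, and 5 to 16 with a clone left out, where the share of all named genes went from 5.78% to 13.4% without 15H (11 members higher and 5 lower). With arrays shifted to 1 median, 6.32% of all named genes had an unadjusted p under 0.05 (3.36% higher and 2.96% lower). With quantile normalization again, this share was 6.04% (3.2% higher and 2.84% lower). It was 5.84% without 4L (4 members higher and 1 lower) and 5.49% without 24L (5 members higher and 0 lower). At a 1.5-fold limit in place of 2-fold, 6 members were higher and 3 lower without overlap. The share of all named genes at that limit was not counted, so these 2 counts cannot be set against it. Members at least 2-fold lower ranged from 1 without 12H to 6 without 15H, beside 0.914% and 2.04% of all named genes. With a limit of 7 in place of 6, 11 members counted as bright. Among 49 single genes, signs turned for 5 with a clone left out. Their ranges with a clone left out were -0.134 to 0.0661 for Adam9, -0.0365 to 0.124 for Adam10, -0.24 to 0.46 for Adamts5, -0.0870 to 0.68 for Mmp11 and -0.15 to 0.97 for Mmp23. Without 12H or 15H, the single high SOST clone is taken to vary as the low SOST ones do. Dim genes limit what the arrays can show.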
